A study of Mus musculus with 4 samples.

Results

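Complement is an enzyme cascade of the blood and tissue fluid that tags surfaces for clearance and calls in leukocytes. In the classical pathway C1q holds the proteases C1r and C1s, of which C1s cuts C4 and C2. In the alternative pathway factor D cuts factor B while properdin holds the resulting enzyme together. Both routes cut C3, the central protein, and C1 inhibitor, the product of Serping1, blocks C1r and C1s. The liver makes most of the protein in plasma, and fibroblasts and myeloid cells are known local sources.

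The 9 genes described here, C1ra, C1s1, C4b, C2, C3, Cfb, Cfd, Cfp and Serping1, were taken as the rows with these symbols among the 32285 genes of a single-cell RNA sequencing series. The study followed injury-induced heterotopic ossification, the growth of bone in soft tissue, in tibial muscle. All 4 groups were Nse-Bmp4 mice of the C57BL/6 strain, labelled 6 to 8 weeks old, which carry murine Bmp4 behind the neuron-specific enolase promoter, so the uninjured group carried the transgene too. Muscle was taken uninjured (Uninjured) or at 1, 3 or 7 days post injury (dpi) with cardiotoxin, a snake venom toxin that destroys muscle fibers. The study calls the uninjured muscles matched and does not say whether their mice were injured elsewhere. For each time point 3 muscles were pooled into 1 10x Genomics library, so every group had n = 1, no test between time points was possible, and every interval below is a 95% interval for counting error only.

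The libraries held 91146335 to 129007669 unique molecular identifiers (UMIs, counts of captured RNA molecules) in 11722 to 23752 barcodes, of which 9641 to 20301 were kept after filtering. Depth was lower in the later libraries. Kept cells had medians of 8638 UMIs in the Uninjured library, 5896 at 1 dpi, 4338 at 3 dpi and 3049 at 7 dpi, and shares of cells were also taken after thinning each cell to 1000 UMIs. Pairs of libraries shared 30 to 95 cell barcodes. Cells were named by the number of marker genes with a UMI, so each name stands for a marker gate. Mesenchymal cells, the fibroblast-like stroma, numbered 8414, 3876, 6294 and 9968 in the Uninjured, 1 dpi, 3 dpi and 7 dpi libraries, and their marker Pdgfra stood at 343, 494, 342 and 119 CPM (UMIs of the gene scaled to 1e6 UMIs of the class). Monocytes and macrophages numbered 246, 1621, 831 and 265, and neutrophils 52, 517, 329 and 89. Chondrocytes passed the gate only at 7 dpi, with 5621 cells. The muscle itself was thinly represented, with 90 to 346 myogenic cells a library. B cells, in which most of these genes should be silent, served as a measure of free RNA in the droplets, with median depths of 2431, 2829, 1723 and 1449 UMIs against 9160, 8074, 5859 and 3300 in mesenchymal cells.

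Of the 9 genes, 7 had most of their UMIs in mesenchymal cells in every library, 1 (Cfp) had its highest levels in myeloid cells, and 1 (Cfd) was nearly absent. In the Uninjured library mesenchymal cells held 97.3% of the C2 UMIs, 98.6% of C4b, 98.9% of C1s1, 99.3% of Serping1, 99.4% of C3 and 99.5% each of C1ra and Cfb, while they were 81.6% of the kept cells. At 1 dpi they were 40.2% of the kept cells and still held 81.7% of the Cfb UMIs, 91.1% of C3 and 98.1% of Serping1. At 7 dpi chondrocytes held 14.1% of the Serping1 UMIs and 29.6% of the C4b UMIs. Monocytes and macrophages held 37.5%, 72.7%, 42.7% and 28.6% of the Cfp UMIs in the 4 libraries, and dendritic cells 15.3%, 6.87%, 23.8% and 7.78%. Cells that passed no gate held a further 31.5%, 8.99%, 24.0% and 27.5% of Cfp, and at 7 dpi mesenchymal cells held 19.3% and chondrocytes 13.3%.

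**Figure D1:**
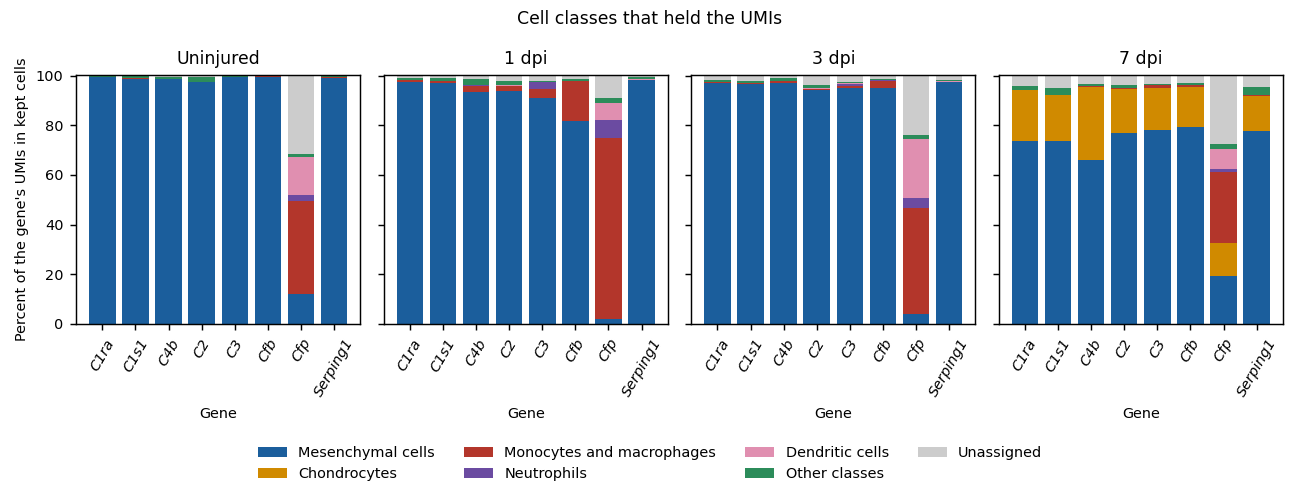
Stacked bars of the percent of each gene's UMIs (y axis) held by each cell class, for 8 genes (x axis) in the 4 libraries, over kept cells. Mesenchymal cells filled most of every bar except that of Cfp, and chondrocytes took up 29.6% of the C4b bar at 7 dpi.

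The genes fall in few places of the genome (GRCm38, GENCODE M21 annotation). C4b (chromosome 17, 34728380 to 34743882), Cfb (chromosome 17, 34856374 to 34862518) and C2 (chromosome 17, 34862604 to 34898265) lie together on the minus strand, and 85 bases separate Cfb from C2. C3 lies elsewhere on the same chromosome (57203970 to 57228136, minus strand). C1ra (chromosome 6, 124512405 to 124523443, plus strand) and C1s1 (chromosome 6, 124530345 to 124542359, minus strand) point towards each other with 6901 bases between them. Cfd lies on chromosome 10 (79890853 to 79892655, plus strand), Cfp on chromosome X (20925454 to 20931555, minus strand) and Serping1 on chromosome 2 (84765387 to 84775444, minus strand). Some members have close copies that can share reads. Of the last 500 stretches of 50 bases in the longest transcript, 38.4% of those of C4b also occur in C4a, 27.0% of those of C1ra in C1rb and 16.2% of those of C1s1 in C1s2. These 3 levels are therefore uncertain, and the size of the effect was not measured. The copies themselves had at most 0.637 CPM (C4a), 0.159 CPM (C1rb) and 0.280 CPM (C1s2) in mesenchymal cells of any library. C2 and Cfb shared 0 such stretches.

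The 250 bases before the transcription start, as RefSeq lists them (GRCm38.p6), are printed for the member with the largest ratio between 3 and 7 dpi (C3), for a gene of the classical proteases (C1s1) and for the myeloid gene (Cfp). They run 5′ to 3′ on the strand of the gene, and capitals mark a match to the C/EBP motif.
C3 (chr17:57228137-57228386, minus strand): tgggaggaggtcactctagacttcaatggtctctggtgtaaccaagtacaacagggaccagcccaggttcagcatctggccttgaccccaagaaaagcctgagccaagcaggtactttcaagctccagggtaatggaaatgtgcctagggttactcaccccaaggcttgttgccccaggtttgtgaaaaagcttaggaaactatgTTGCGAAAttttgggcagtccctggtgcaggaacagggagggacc
C1s1 (chr6:124542360-124542609, minus strand): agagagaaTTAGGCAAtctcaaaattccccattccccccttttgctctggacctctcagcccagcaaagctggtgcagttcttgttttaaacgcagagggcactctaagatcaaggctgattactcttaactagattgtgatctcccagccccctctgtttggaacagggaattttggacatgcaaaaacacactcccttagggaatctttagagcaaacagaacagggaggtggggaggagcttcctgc
Cfp (chrX:20931556-20931805, minus strand): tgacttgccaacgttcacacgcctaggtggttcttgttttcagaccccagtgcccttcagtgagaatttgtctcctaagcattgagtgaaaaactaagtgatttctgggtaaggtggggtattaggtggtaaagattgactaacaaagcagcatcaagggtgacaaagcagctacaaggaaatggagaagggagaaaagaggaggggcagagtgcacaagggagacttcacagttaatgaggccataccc

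Such windows were listed for 5 of the 9 genes, C3, C1ra, C1s1, Cfd and Cfp. They were searched on both strands for TTCNNNGAA (STAT), GAAANNGAA (IRF), GGGANTTTC (NF-kB) and TTGCNNAA (C/EBP). The C/EBP letters occurred 45 to 38 bases before the C3 start (TTGCGAAA) and 242 to 235 bases before the C1s1 start (TTAGGCAA, the other strand), and the other 3 windows held no match to any of the 4 motifs. The C1ra window (124512371 to 124512620) lies mostly inside the gene as GENCODE gives it (start at 124512405), so bases further upstream were not searched. Among 32851 listed mouse starts, 9.56% held the C/EBP letters, 7.02% the STAT letters, 7.13% the IRF letters and 0.941% the NF-kB letters. These matches describe letters and not bound sites.

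The first question was whether the genes differed between libraries within mesenchymal cells. At 1 dpi against Uninjured, 7 members had 10 CPM or more in the higher library, and 1 of them (Cfb) was at least 2-fold higher and 0 were at least 2-fold lower. Among the 8810 genes compared there, 4.61% were at least 2-fold higher and 2.02% at least 2-fold lower, and the median log2 ratio was 0.52 over the 7 members and 0.16 over all genes compared. At 3 dpi against 1 dpi 0 of 7 members passed in either direction, beside 3.63% of genes higher and 3.37% lower, with medians of -0.47 over the members and -0.05 over all genes. At 7 dpi against 3 dpi 5 of 7 members (C3, Serping1, Cfb, C1ra and C1s1) were at least 2-fold lower and 0 higher, where 5.60% of genes were lower and 4.46% higher, with medians of -1.21 and -0.12. Cfp and Cfd were below 10 CPM in mesenchymal cells of every library. With n = 1 these counts compare libraries and not conditions.

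C1ra and C1s1 encode the proteases of the first component and had the same order of libraries in mesenchymal cells. C1ra stood at 279.7 CPM in the Uninjured library, 329 at 1 dpi, 215 at 3 dpi and 93.1 at 7 dpi. C1s1 stood at 395 CPM, 566, 357 and 169 in the same order. Both were highest at 1 dpi and lowest at 7 dpi. The 7 dpi level was 2.31-fold lower than at 3 dpi for C1ra (interval 2.23 to 2.38) and 2.11-fold lower for C1s1 (2.06 to 2.16). After thinning, 24.0%, 28.5%, 23.6% and 8.69% of mesenchymal cells had a C1ra UMI, against 1.48%, 0.896%, 0.601% and 0% of B cells. In pericytes and smooth muscle C1s1 reached 224 CPM in the Uninjured library (194 to 257, 111 cells) and 173 CPM at 7 dpi (153 to 194, 223 cells). C1ra stood at only 37.3 and 43.2 CPM in the same cells, with B cells at 14.0 and 6.92 CPM for C1s1 and 10.5 and 3.46 CPM for C1ra. At 7 dpi C1s1 was thus close in pericytes and smooth muscle (173 CPM) and in mesenchymal cells (169 CPM).

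C4b and C2 encode the substrates of C1s. Together these substrates form the classical enzyme that cuts C3. C4b in mesenchymal cells was 94.3 CPM in the Uninjured library, 134 at 1 dpi, 150.3 at 3 dpi and 95 at 7 dpi. The highest level was thus at 3 dpi, and the first and last libraries had overlapping intervals (92.2 to 96.5 and 92.4 to 97.6 CPM). The 3 dpi level was 1.12-fold that at 1 dpi (1.09 to 1.17). This order turned when mesenchymal cells were taken by gates built from the study's cluster markers (log2 ratio -0.14 in place of 0.17). After thinning the same ratio was 0.76 on the log2 scale. C4b was also present in Schwann cells, the glia of peripheral nerve, at 53.5, 78.5, 102 and 114 CPM over 231, 186, 157 and 165 cells. The Schwann cell level at 7 dpi was 2.13-fold that in the Uninjured library (1.40 to 3.26). B cells had 0 to 6.36 CPM of C4b. Chondrocytes at 7 dpi had 74.6 CPM (71.6 to 77.7), so that mesenchymal cells were only 1.27-fold higher (1.21 to 1.34).

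C2 was the lowest of the mesenchymal members, at 17.0 CPM in the Uninjured library, 30.3 at 1 dpi, 27.6 at 3 dpi and 21.3 at 7 dpi. It was 1.78-fold higher at 1 dpi than in the Uninjured library (1.65 to 1.93). Its order between 1 and 3 dpi turned after thinning, from a log2 ratio of -0.13 to 0.28. Macrophages are a known source of C2, but monocytes and macrophages had only 1.39 to 2.53 CPM here, and B cells had 0 to 0.908 CPM. Schwann cells had 17.1 CPM in the Uninjured library (15 UMIs), where the mesenchymal level was 0.995 times theirs (0.601 to 1.78). They had 3.74 CPM at 1 dpi (3 UMIs), 10.4 CPM at 3 dpi (4 UMIs) and 0 UMIs at 7 dpi.

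C3 had the widest range of the mesenchymal members. It stood at 1009 CPM in the Uninjured library (1002 to 1016), 1770 at 1 dpi (1756 to 1784), 1077 at 3 dpi (1068 to 1085) and 202 at 7 dpi (199 to 206). The level was 1.75-fold higher at 1 dpi than in the Uninjured library (1.74 to 1.77) and 5.32-fold lower at 7 dpi than at 3 dpi (5.21 to 5.43). The share of mesenchymal cells with a C3 UMI followed the same order at equal depth, at 42.1%, 60.7%, 54.0% and 13% after thinning. Without thinning the shares were 70.9%, 86.6%, 81.0% and 28.1%. In B cells, thinned likewise, 1.97%, 3.96%, 5.71% and 1.14% had a C3 UMI. The 10% of thinned mesenchymal cells with the most C3 UMIs held 49.9% of them in the Uninjured library, 39.2% at 1 dpi, 43.7% at 3 dpi and 85.4% at 7 dpi. The corresponding shares for Serping1 were 29.4%, 28.5%, 32.1% and 57.8%. In the Uninjured library the share was 46.2% for C1s1, 50.5% for C1ra and 100% each for C2, C4b and Cfb. Such a share rises when fewer cells have a UMI, as with C3 at 7 dpi. It therefore cannot separate uneven spread from a low level, and uneven spread was not tested.

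**Figure D2:**
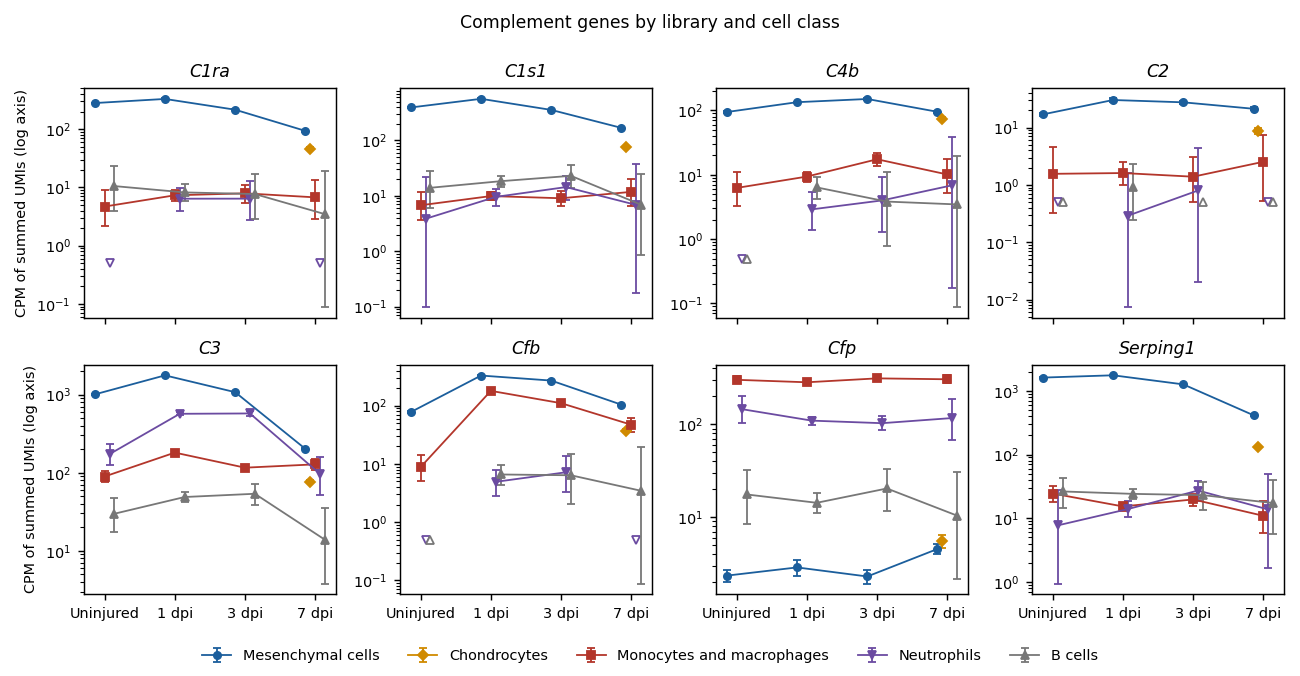
CPM of summed UMIs (y axis, log scale) of 8 genes in the 4 libraries (x axis) for 5 cell classes, with exact Poisson 95% intervals. Open symbols, drawn at a fixed low position, mark 0 UMIs. Mesenchymal C3 peaked at 1770 CPM at 1 dpi and lay at 202 CPM at 7 dpi, while Cfp in monocytes and macrophages stayed between 284 and 313 CPM.

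Neutrophils were the second class with C3 well above the free RNA level. Their C3 stood at 173 CPM in the Uninjured library (126 to 232, 45 UMIs), 569 at 1 dpi (544 to 594), 575 at 3 dpi (534 to 619) and 96.1 at 7 dpi (52.5 to 161, 14 UMIs). The ratio of 1 dpi to Uninjured was 3.28 (2.44 to 4.51), but the 52 Uninjured cells in this gate also held 273 CPM of C1qa, a macrophage gene, against 2.03 CPM at 1 dpi. C3 in B cells was 29.8, 48.8, 53.7 and 13.8 CPM in the 4 libraries. Serping1, which stood near C3 in mesenchymal cells at 1 dpi, was only 13.9 CPM in neutrophils there. After thinning, 27.4% of neutrophils at 1 dpi and 31.4% at 3 dpi had a C3 UMI. C3 in monocytes and macrophages was lower, at 89.4, 181, 116 and 128 CPM, and was 2.03-fold higher at 1 dpi than in the Uninjured library (1.73 to 2.38). Within this class C3 lay mostly in classical monocytes, with 200.2 CPM at 1 dpi and 175 CPM at 3 dpi, against 51.0 and 35.7 CPM in macrophages (52 and 160 cells). Classical monocytes of the Uninjured library had 129.8 CPM (108 to 154), so their level differed less from that at 1 dpi than the level of the whole class. The part of the mixture in the class ratio was not tested. The macrophage level was 0.255 times the monocyte level at 1 dpi (0.151 to 0.404) and 0.204 times at 3 dpi (0.138 to 0.293).

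**Figure D3:**
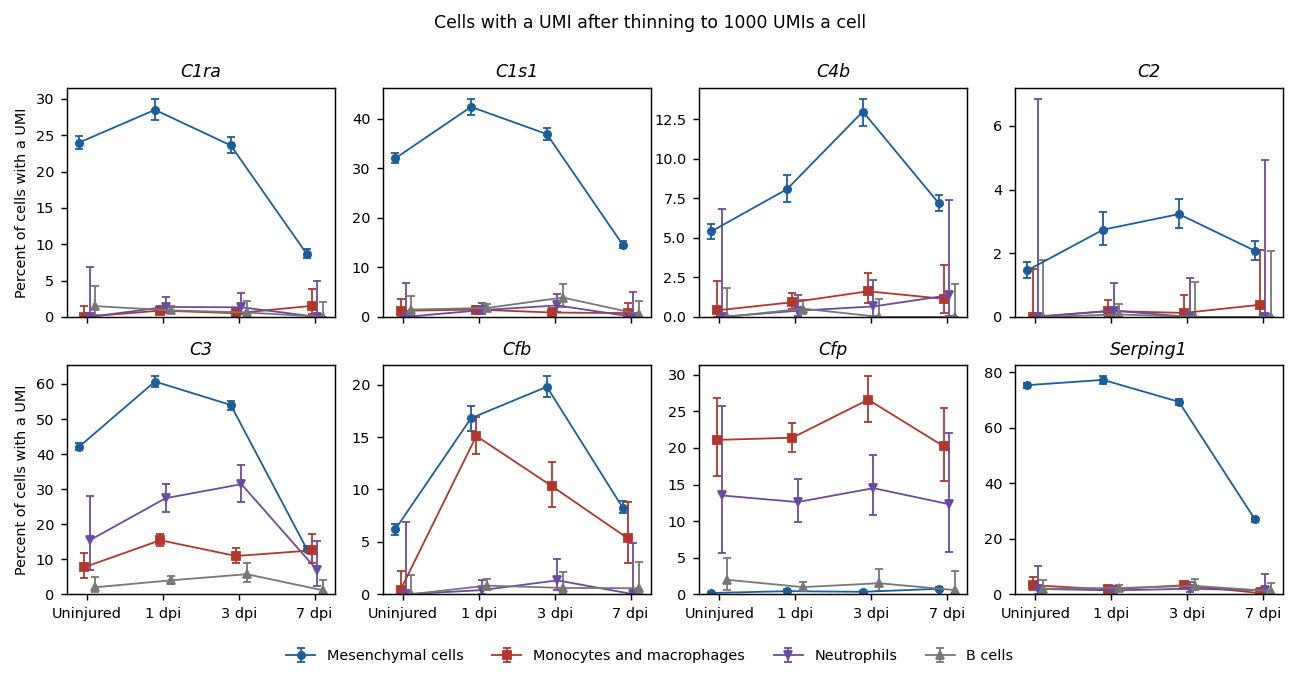
Percent of cells with a UMI of each gene (y axis) after thinning every cell to 1000 UMIs, in the 4 libraries (x axis) for 4 cell classes, with exact binomial 95% intervals. C3 UMIs were found in 60.7% of mesenchymal cells and 27.4% of neutrophils at 1 dpi, against 3.96% of B cells.

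Cfb, which encodes factor B of the alternative pathway, had the largest difference between the Uninjured and 1 dpi libraries in both mesenchymal cells and monocytes and macrophages. In mesenchymal cells it stood at 77.7 CPM in the Uninjured library, 329 at 1 dpi, 269.8 at 3 dpi and 104 at 7 dpi. The 1 dpi level was 4.24-fold the Uninjured level (4.11 to 4.38). After thinning, 6.18%, 16.8%, 19.8% and 8.27% of mesenchymal cells had a Cfb UMI, and the log2 ratio of 3 dpi to 1 dpi turned from -0.29 to 0.11. In monocytes and macrophages Cfb stood at 8.84 CPM in the Uninjured library (17 UMIs), 179.6 at 1 dpi, 110.4 at 3 dpi and 47.1 at 7 dpi. The 1 dpi level was 20.3-fold the Uninjured level (12.7 to 34.9), a log2 ratio of 4.34 that was 3.68 with the gates from the study's markers. After thinning it was 5.56, but the 246 Uninjured cells then held 246000 UMIs in place of 1923050. That value thus rests on even fewer Uninjured Cfb UMIs than 17 and is very uncertain. Within classical monocytes alone the same ratio was 14.9 (8.54 to 29.0). At 1 dpi macrophages and classical monocytes differed little in Cfb (142 and 183 CPM), and at 3 dpi the macrophage level was 1.79-fold the monocyte level (1.42 to 2.24). B cells had 0, 6.59, 6.39 and 3.46 CPM of Cfb, and neutrophils, with their high C3, had 0 to 7.19 CPM.

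Cfp, which encodes properdin, the stabilizer of the alternative pathway enzyme, was the myeloid member. In monocytes and macrophages it stood at 302 CPM in the Uninjured library (278 to 328), 284 at 1 dpi (275 to 293), 313 at 3 dpi (297 to 330.4) and 306 at 7 dpi (276 to 339.5). Dendritic cells had 255, 264, 221 and 319.7 CPM, and neutrophils 146, 109.7, 103 and 117 CPM. In contrast to C3 and Cfb, no 2 neighbouring libraries differed by more than 1.10-fold in monocytes and macrophages. Macrophages had more Cfp than classical monocytes, with 371 against 277 CPM at 1 dpi and 457 against 244 CPM at 3 dpi, a ratio of 1.87 (1.64 to 2.13). Classical monocytes alone went from 163 CPM in the Uninjured library to 277 CPM at 1 dpi, a ratio of 1.69 (1.45 to 2.0) that the whole class did not show. Mesenchymal cells had 2.35, 2.88, 2.30 and 4.55 CPM, below the 17.6, 14.3, 20.4 and 10.4 CPM of B cells.

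Cfd encodes factor D (adipsin), a protease known mainly from fat cells. It had 1, 8, 5 and 5 UMIs in the kept cells of the Uninjured, 1 dpi, 3 dpi and 7 dpi libraries. Mesenchymal cells held 1, 0, 2 and 1 of them. A count of 3 UMIs would stand for 0.0379 CPM in the Uninjured and 0.0840 CPM in the 1 dpi mesenchymal cells. The Cfd counts were too low to compare libraries. Why they were so low, in the tissue or in the counting of reads, was not tested.

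Serping1 encodes the inhibitor of C1r and C1s. In mesenchymal cells it stood at 1616 CPM in the Uninjured library (1608 to 1625), 1756 at 1 dpi (1742 to 1769), 1264 at 3 dpi (1254 to 1273) and 414 at 7 dpi (409 to 419.8). The first 2 levels were close, and their log2 ratio of 0.12 turned to -0.09 under median-ratio scaling, which moved the median over all genes compared from 0.16 to -0.06. The 7 dpi level was 3.05-fold lower than at 3 dpi (3.00 to 3.10). After thinning, 75.4%, 77.3%, 69.4% and 27.1% of mesenchymal cells had a Serping1 UMI, against 1.97%, 2.24%, 3.00% and 1.14% of B cells. Pericytes and smooth muscle had 208 CPM in the Uninjured library and 439.7 CPM at 7 dpi, the latter beside 414 CPM in mesenchymal cells. The makeup of the pericyte and smooth muscle gate differed between those libraries. The pericyte gene Rgs5 stood at 413 and 6011 CPM, and the smooth muscle genes Myh11 at 6655 and 1725 CPM and Lmod1 at 947 and 259 CPM. The part of this makeup in the Serping1 and C1s1 values was not tested. Myogenic cells had 206 CPM (183 to 232), 564 (497 to 637), 45.5 (39.6 to 52.1) and 125 (105 to 148), with few cells (186, 90, 346 and 201). The stages of these cells differed between libraries. Pax7, a satellite cell gene, stood at 419, 687, 108 and 246 CPM in the 4 libraries. Myog, a differentiation gene, stood at 1459, 0, 409 and 1520 CPM in the same order. The part of this in the Serping1 values was not tested.

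Splitting mesenchymal cells by further markers separated the members. Adventitial cells (Pi16, Dpp4) had 1687, 2356, 1658 and 347 CPM of C3 in the 4 libraries, and interstitial cells (Smoc2, Col15a1) had 505, 1490, 1334 and 459 CPM. The adventitial level was thus 3.34-fold the interstitial level in the Uninjured library (3.29 to 3.40) but 0.756-fold at 7 dpi (0.718 to 0.796). Interstitial C3 was 2.95-fold higher at 1 dpi than in the Uninjured library (2.90 to 3.00), and adventitial C3 1.40-fold (1.38 to 1.42). The adventitial level of Cfb was 1.40-fold the interstitial level in the Uninjured library, 1.87-fold at 1 dpi (1.80 to 1.94), 1.09-fold at 3 dpi and 0.957-fold at 7 dpi (0.889 to 1.03). C4b was higher in adventitial cells in every library, from 1.27-fold at 3 dpi to 1.66-fold at 1 dpi. C2 was lower in adventitial cells in every library, from 0.789-fold at 1 dpi to 0.439-fold at 7 dpi, and C1s1 was lower too, from 0.884-fold to 0.635-fold. C1ra hardly differed between the 2 subsets before 7 dpi (0.984-fold to 1.02-fold). Pi16 and Dpp4 defined the subset and are no result.

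**Figure D4:**
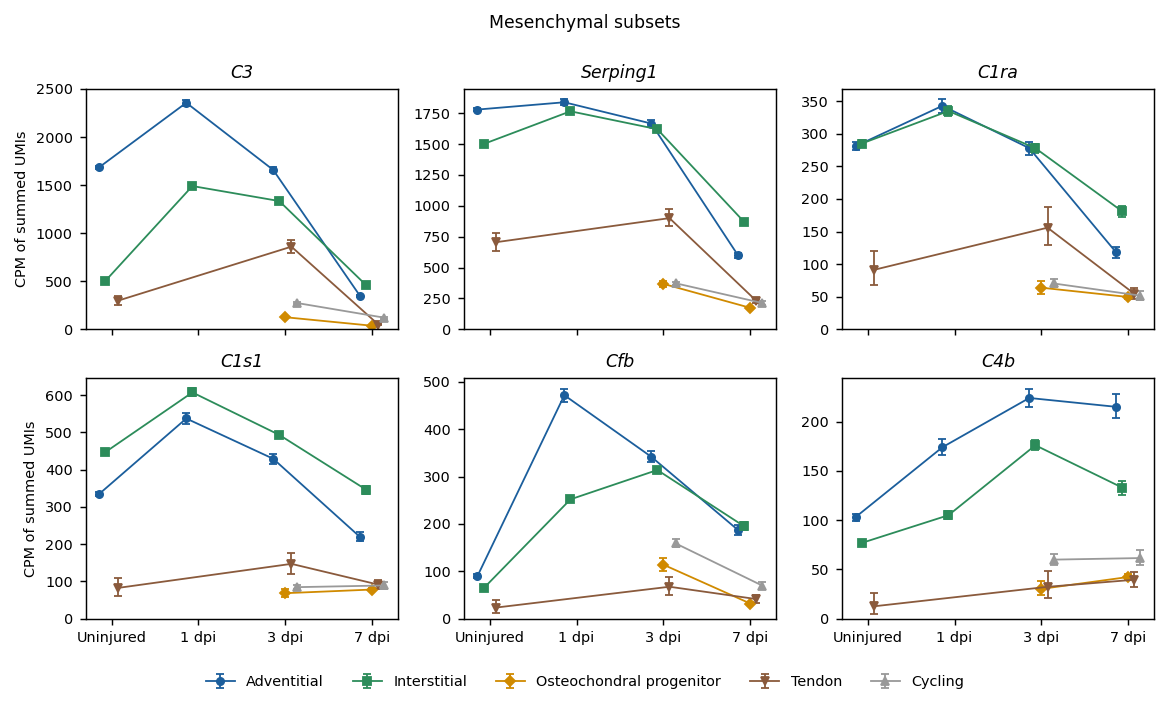
CPM of summed UMIs (y axis) of 6 genes in 5 marker-defined mesenchymal subsets over the 4 libraries (x axis), with exact Poisson 95% intervals; subsets with fewer than 50 cells in a library are left out. Adventitial C3 was 1687 CPM and interstitial C3 505 CPM in the Uninjured library, and osteochondral progenitors lay at 37.4 CPM at 7 dpi.

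The makeup of the mesenchymal class differed between libraries as well. Of the 8414, 3876, 6294 and 9968 mesenchymal cells, adventitial cells numbered 3135, 1054, 1333 and 926. Interstitial cells numbered 4688, 2420, 3393 and 2155. Osteochondral progenitors (Lrrc15, Tnn) numbered 0, 7, 139 and 1903 cells, cycling cells 25, 30, 409 and 767, and tendon cells 57, 30, 77 and 606. The remaining mesenchymal cells fell in no subset but count in the class levels. The part of this makeup in the class levels was not tested. At 7 dpi interstitial cells had 12.3-fold more C3 than osteochondral progenitors (11.2 to 13.4), 6.12-fold more Cfb (5.53 to 6.78), 4.99-fold more Serping1 (4.77 to 5.21) and 3.14-fold more C4b (2.85 to 3.46). Within interstitial cells alone, the 7 dpi level was 2.91-fold lower than at 3 dpi for C3 (2.82 to 3.00), 1.86-fold for Serping1 (1.82 to 1.91), 1.61-fold for Cfb (1.53 to 1.69), 1.53-fold for C1ra (1.46 to 1.61) and 1.43-fold for C1s1 (1.38 to 1.48). Within adventitial cells it was 4.78-fold lower for C3, 2.79-fold for Serping1, 2.36-fold for C1ra, 1.96-fold for C1s1 and 1.83-fold for Cfb. So 1 of the 5 genes (C3) stayed past 2-fold in interstitial cells and 3 (C3, Serping1 and C1ra) in adventitial cells. The share of all genes past 2-fold was not taken within these subsets, so these counts have no background to be read against. Chondrocytes at 7 dpi had 76.6 CPM of C3, 131 of Serping1, 75.2 of C1s1, 46.0 of C1ra, 37.1 of Cfb and 8.61 of C2. Mesenchymal cells of the same library were 2.64-fold higher in C3 (2.53 to 2.76), 3.16-fold in Serping1 (3.05 to 3.26) and 2.81-fold in Cfb (2.64 to 3.00).

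In monocytes and macrophages fewer members could be compared. At 1 dpi against Uninjured 2 of 4 members (Cfb and C3) were at least 2-fold higher and 0 lower, where 13.7% of 7543 genes were higher and 3.82% lower, with median log2 ratios of 0.46 over the members and 0.20 over all genes. C3 lay just past 2-fold (log2 ratio 1.02), and its call was lost without the cell filter (0.99), with the stricter gate (0.88), with the gates from the study's markers (0.91) and with median-ratio scaling (0.87). At 3 dpi against 1 dpi 0 of 5 members passed in either direction, beside 4.37% of genes higher and 3.27% lower. At 7 dpi against 3 dpi 1 of 6 members (Cfb, 2.34-fold lower, 1.77 to 3.15) was lower and 0 higher, where 9.11% of genes were lower and 2.91% higher. Serping1, C1ra and C1s1 in this class lay at 4.68 to 24.4 CPM, beside B cell levels of 3.46 to 26.3 CPM. Serping1 was below the B cell level in every library. At 7 dpi C1ra (6.73 against 3.46 CPM, 8 UMIs) and C1s1 (11.8 against 6.92 CPM, 14 UMIs) were above it. B cells were also shallower, with a median of 2431 UMIs against 6966 in the Uninjured library. Whether these levels are background was not tested, and they were not read as expression by this class. Serping1 still counts among the members compared above at every step, and C1s1 among the 6 of the last. With the B cell level subtracted, 2 of 3 members were at least 2-fold higher and 0 lower at 1 dpi against Uninjured. Of 3077 genes compared that way, 27.4% were higher and 21.5% lower. The number of macrophages within the class was 36, 52, 160 and 31 and that of classical monocytes 137, 1325, 434 and 161, so the mixture also differed between libraries.

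Of 46 further complement symbols listed by role, 45 had a row. Among 12 recognition genes C1qa, C1qb and C1qc, the subunits of C1q, were the only ones at 10 CPM or more in monocytes and macrophages. C1qa there stood at 885, 572, 2238 and 1091 CPM and was 3.92-fold higher at 3 dpi than at 1 dpi (3.8 to 4.04), C1qb was 2.45-fold higher (2.38 to 2.51) and C1qc 2.26-fold higher (2.17 to 2.35). The mixture of macrophages and monocytes in this class differed between libraries, and its part in these values was not tested. The scavenger receptor Colec12 lay at 103 to 121 CPM in mesenchymal cells. C1qb also reached 10 CPM in mesenchymal cells at 7 dpi and was at least 2-fold higher there than at 3 dpi, beside 4.46% of all genes compared. Whether free RNA gave this C1qb level was not tested. Among 6 terminal components only C7 passed 10 CPM in mesenchymal cells, at 82.9, 57.8, 28.6 and 1.82 CPM, and its 7 dpi level was 15.7-fold lower than at 3 dpi (12.8 to 19.5). Hc, which encodes C5 in the mouse, was at most 0.0743 CPM in mesenchymal cells and 0 CPM in monocytes and macrophages.

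Among 13 regulators, Cd55, a membrane brake on the C3-cutting enzymes, stood at 324, 253, 108 and 57.1 CPM in mesenchymal cells, in the order of the libraries. Vtn, which encodes vitronectin, stood at 134, 98.8, 43.4 and 29.5 CPM. Cd59a, a membrane guard against the terminal complex, had 4.90 CPM at 3 dpi and 39.0 CPM at 7 dpi, 7.96-fold higher (7.02 to 9.06). At 3 dpi against 1 dpi 0 of 5 regulators with enough UMIs passed 2-fold upward and 2 (Vtn and Cd55) downward. Over all genes compared there in mesenchymal cells, 3.63% were higher and 3.37% lower. At 7 dpi against 3 dpi 1 of 6 regulators (Cd59a) passed upward, where 4.46% of all genes did. Among 9 receptors 7 had enough UMIs in monocytes and macrophages. Over all genes compared in this class, 13.7% were at least 2-fold higher and 3.82% lower at 1 dpi against Uninjured. The share was 4.37% higher at 3 dpi against 1 dpi, and 9.11% lower at 7 dpi against 3 dpi. C3ar1, the receptor of the C3a fragment, was 2.98-fold higher at 1 dpi than in the Uninjured library (2.60 to 3.43), C5ar1 2.23-fold (1.91 to 2.63) and Cd93 2.75-fold (2.26 to 3.39), while Itgax was 3.06-fold lower (1.88 to 4.85, 62 and 28 UMIs). At 3 dpi against 1 dpi Itgax was 3.22-fold higher (2.24 to 4.62), and at 7 dpi against 3 dpi C3ar1 was 2.12-fold lower (1.78 to 2.56) and Cd93 4.02-fold lower (3.03 to 5.45). The part of the class mixture in the receptor values was not tested either.

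Across 40 sums of a class in a library, C1ra and C1s1 had a Pearson r of 0.89 on log2(CPM + 1), C1ra and Serping1 0.86, and C1s1 and Serping1 0.86. The sums of a library share its depth and free RNA, so these values are descriptive. Of 12341 genes considered, those most like C3 were Pi16 (r = 0.88), Mgst1 (0.81) and Ces1d (0.80), and those most like Cfb were Rnase4 (0.80), Ang (0.79) and Emp1 (0.78). C1ra was most like Ndn (0.93), C1s1 (0.89) and Ms4a4d (0.89). C1s1 was most like Slit3 (0.92), Ebf2 (0.91) and Bmp5 (0.90), and Serping1 like Adcyap1r1 (0.92), Prelp (0.91) and Ndn (0.91). C4b was most like Has2os (0.85), Ogn (0.84) and Asphd2 (0.84), C2 like Twist2, Adam33 and Selenos (0.79 each), and Cfp like Plbd1 (0.95), Csf2ra (0.94) and Pira2 (0.94). Twist2 is a marker of the mesenchymal gate and Plbd1 of the dendritic cell gate. Cfd was below the level needed.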

How the data were processed

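Single cells of tibial muscle were sequenced on the 10x Genomics platform, 1 library of 3 pooled muscles for each group. The deposited matrices hold whole-number counts of UMIs per gene and barcode, which the authors made with Cell Ranger 5.0.0 on mm10 and which were not normalized here before summing. The labels also mention down-sampling of aggregated data, and whether it touched these counts is not given in the sources used here. The 9 members, the pathway lists and the tests were chosen with earlier results of these data known.

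Barcodes were kept within 2 SD of the library mean of log10 UMIs and log10 genes and at 10% mitochondrial UMIs or less. Scrublet (scanpy 1.11.5) set its own threshold at 372, 278, 0 and 0 doublets, so the top 7.5% of scores were removed instead (902, 879, 1137 and 1781 barcodes, some of which also failed the filters). A class needed 3 of 10 markers and 2 more than any other class, a subset 2 of 5, and a class in a library 50 cells. Chondrocytes needed 4 of 10 markers and as many as any class other than mesenchymal. Mesenchymal and chondrocyte marker counts were not compared with each other. A cell that passed both gates was named a chondrocyte and left out of mesenchymal cells. UMIs were summed by class and library and divided by the class total (CPM). Intervals are exact Poisson for levels, exact conditional binomial for ratios and Clopper-Pearson for shares. The floor for a count of 0 was 3 UMIs. Genes with 10 CPM or more in the higher library were compared, and a 2-fold ratio was counted. The procedure was tested on simulated data. Named genes were the 9 members, genes of the fixed pathway lists, and for each member the 3 genes with the highest Pearson r over the class sums. Alternatives were the doublet step, the cell filter, stricter and looser gates, gates from the study's markers, median-ratio scaling, thinned cells, subtraction of the B cell level and a 1 CPM filter. The gates from the study's markers took cells with Prrx1 and Col1a1 but no Ptprc UMI, and cells with Cd68 but no Prrx1 UMI. The study gives these markers for clusters, and the Prrx1 condition on Cd68 was added here. Gene positions came from GENCODE M21 on GRCm38, where 99.6% of 32285 IDs matched. The result for 1 gene of the pathway lists is not reported here.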

Additional observations from a re-analysis of the deposited data

Results flagged for a closer look

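Serping1 differed in direction between classes at 1 dpi against Uninjured, with a log2 ratio of 0.12 in mesenchymal cells and -0.68 in monocytes and macrophages. The mesenchymal value was small and turned to -0.09 under median-ratio scaling, so the opposite direction depends on the scaling. Each value compares 1 library with 1 other, and the difference between the classes was not tested. The level in monocytes and macrophages, 24.4 CPM in the Uninjured library and 15.3 CPM at 1 dpi, was below that in B cells, 26.3 and 24.1 CPM.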

How the results depend on the processing

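In mesenchymal cells the counts of members past 2-fold stayed within 1.5 times the reported ones under every alternative run. In monocytes and macrophages they did not. At 7 dpi against 3 dpi the count of 1 became 2 with doublets left in, 3 with the stricter gate, 0 with the gates from the study's markers, 3 in thinned cells and 2 after subtraction of the B cell level. At 1 dpi against Uninjured the count of 2 became 1 without the cell filter, with the stricter gate, with the gates from the study's markers and with median-ratio scaling, where C3 was the gene lost. At 3 dpi against 1 dpi the count of 0 became 1 with the gates from the study's markers and 2 after subtraction. The causes were not tested. Of 36 gene ratios, 5 changed sign with the gates from the study's markers, 4 in thinned cells and 2 with median-ratio scaling. Leaving out a replicate could not be run, since each group has 1 library. No paired analysis was possible because each group is 1 separate library, and no test was made. Cfd had too few UMIs in every class to be compared, and the cause was not tested. The neutrophil and monocyte values of the Uninjured and 7 dpi libraries were limited by few cells.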
